A study of Mus musculus with 24 samples.

Results

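The transcripts described here encode 10 receptors of natural killer (NK) cells: the lectin-like receptors Klra7, Klra3, Klrd1, Klrc1, Klrc2, Klrk1, Klrb1c, Klre1 and Klrg1, and Ncr1. They were found as the non-control probes that carry these gene names on one-colour Agilent mouse arrays of blood RNA, which gave 13 probes for 9 of the 10 genes among 39429 probes in all. The array level of Klra3 was not analysed here, and the gene enters only the promoter search below. The single Klrc2 probe was well above background on 0 of 24 arrays, so that 8 of the 10 receptors passed the filter on dim probes (well above background on at least 5 arrays) and were tested among 15787 genes.

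NK cells are lymphocytes that kill infected, transformed or stressed cells, and they weigh activating against inhibitory signals from receptors of this kind. Most of the lectin-like receptors are encoded next to each other in the NK gene complex. Many of the inhibitory ones bind MHC class I molecules on healthy cells, while Klrg1 binds cadherins. Several of the activating ones bind stress-induced or viral ligands, and the activating ones signal through adaptor proteins. Several of these receptors are also carried by activated CD8 T cells, so that blood RNA does not assign their transcripts to NK cells alone.

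Male C57BL/6J mice were bled from the heart 24 h after exposure to x-rays or none. The groups were Gadd45aKO at 7 Gy (9 arrays), Gadd45aKO at 0 Gy (5 arrays), Gadd45aWT at 7 Gy (5 arrays) and Gadd45aWT at 0 Gy (5 arrays). Gadd45a encodes a stress protein that is induced by DNA damage. The design calls the arrays independent experiments, but the labels name no animal behind an array, nor the age of the mice or any pooling, so p-values measure the spread between these arrays, which may be technical. The title places the study in radiation biodosimetry, the reading of a dose from blood.

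Gadd45a itself did not bear out the genotype labels, so the groups are called KO-labelled and WT. Levels here are log2 processed signals minus each array's 75th percentile. That of Gadd45a was 0.28 to 0.62 in KO-labelled arrays at 0 Gy, against 0.29 to 0.86 in WT arrays at 0 Gy (limma adjusted p = 0.855). At 7 Gy it was −0.69 to 0.30 in KO-labelled arrays, against −1.63 to −0.80 in WT arrays. KO-labelled arrays were thus higher by 1.20 ± 0.18 (SE; limma adjusted p = 4.85e-05). Where the probe lies relative to the deleted part is not given in the sources used here.

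Some arrays stood apart. KO-labelled 0 Gy replicates 1 and 4 differed about as much as repeat spots within an array (ratio of the SDs 1.06) and were averaged, so that n = 4 in that group. The WT 7 Gy arrays fell into 2 sets: replicates 1 and 2 resembled each other (ratio 1.38), as did replicates 3 and 4 (ratio 1.25), while the ratio between the sets was 4.21 or more. KO-labelled 7 Gy replicates 1, 2, 4 and 8 also resembled each other, with ratios of 1.33 to 1.35 in 5 of their 6 pairs and 1.54 between replicates 2 and 8. WT 7 Gy replicates 3, 4 and 5 had mean levels of 1.69, 1.70 and 1.61 over 10 transcripts of hepatocytes, against −2.06 and −2.09 in WT 7 Gy replicates 1 and 2. All 4 groups were spread over slides 1 to 5, and a sixth slide held only KO-labelled 7 Gy replicates 6 to 9. Repeat spots varied by over 10% on KO-labelled 0 Gy replicate 2, KO-labelled 7 Gy replicate 3 and WT 0 Gy replicate 1. Between 25.7% and 50.9% of an array's probes were well above background.

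The Ly49 receptors, encoded by the Klra genes, are near-copies of each other, and the probe sequences show how far an array can separate them. The main Klra7 probe lies at chr6:130168899-130168958 (mm9, minus strand), and the 2 probes of other genes that share the most identical bases with it (51 each) are shown with their differing bases in capitals.
Klra7: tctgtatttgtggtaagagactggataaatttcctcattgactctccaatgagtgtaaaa
Klra23: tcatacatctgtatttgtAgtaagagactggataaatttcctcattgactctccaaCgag
Klra4: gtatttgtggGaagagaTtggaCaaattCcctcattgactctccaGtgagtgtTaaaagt
The Klra23 probe (chr6:130241179-130241238, minus strand) differed from the Klra7 probe at 2 of 53 shared bases, and the Klra4 probe (chr6:129994035-129994094, minus strand) at 6 of 57. The signal called Klra7 may therefore hold other Ly49 transcripts, and no count of Klra genes below is a count of separate measurements. Klre1, by contrast, had a probe that met no other probe compared at 80% or more identical bases over at least 30 bases, at chr6:129534195-129534254 (mm9, plus strand).
Klre1: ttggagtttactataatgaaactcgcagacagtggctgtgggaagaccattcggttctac

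The 250 bases before the transcription start, from RefSeq on GRCm38.p6, were available for 8 of the 10 genes as 12 windows, some of which overlap. The core recognised by RUNX factors, TGTGGT on either strand, stood in windows of 6 of these genes (Klrb1c, Klrc1, Klrc2, Klre1, Klrk1 and Ncr1) and in 8 of the 12 windows, against 14.0% of 32851 promoter windows. The longer TGTGGTT stood in 4 of the 12 windows, against 4.4%. For T-box factors, AGGTGT stood in 0 of the 12 windows, against 11.8% of all. Its longer form AGGTGTGA also stood in 0, against 1.1%. For ETS factors, GGAAGT stood in 1 of the 12, against 19.7% of all. AGGAAG, which can overlap it, stood in 3, against 29.5%. ACAGGAAG, which contains the preceding string, stood in 0, against 2.9%. Every string was searched on both strands. The windows of Klrk1 (chr6:129623865-129624114, minus strand) and Ncr1 (chr7:4337465-4337714, plus strand) are shown with the RUNX core in capitals, as examples of an activating receptor of each structural family. A match is a string and not a site of binding.
Klrk1: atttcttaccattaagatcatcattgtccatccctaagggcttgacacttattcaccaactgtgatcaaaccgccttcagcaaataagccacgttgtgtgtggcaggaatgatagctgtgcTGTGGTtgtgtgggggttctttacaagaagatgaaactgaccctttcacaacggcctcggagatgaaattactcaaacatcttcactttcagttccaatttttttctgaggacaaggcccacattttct
Ncr1: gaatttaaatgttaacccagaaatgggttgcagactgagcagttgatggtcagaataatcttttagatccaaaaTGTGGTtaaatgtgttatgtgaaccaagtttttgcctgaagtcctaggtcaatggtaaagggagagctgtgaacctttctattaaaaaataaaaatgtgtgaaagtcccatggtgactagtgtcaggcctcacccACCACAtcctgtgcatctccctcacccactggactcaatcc

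The first question was how the receptor transcripts changed after 7 Gy in KO-labelled mice. Of the 8 tested receptors, 6 fell: Klrd1, Klrc1, Klra7, Klre1, Klrg1 and Ncr1, by 1.57 to 4.22 fold. Over all 15787 genes, 34.8% fell in this comparison (limma, Benjamini-Hochberg adjusted p under 0.05), and none of the receptors rose, against 12.1% of all genes. The median log2 change of the 8 was −1.08, against −0.27 over all genes. For 5 receptors every KO-labelled 7 Gy array was below every KO-labelled 0 Gy array, which held for 19.8% of all genes. In whole blood, fewer NK cells and less receptor RNA per cell cannot be told apart.

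Klrd1 encodes CD94, the shared subunit that pairs with the NKG2 proteins to read the class I molecule Qa-1. Its level was −5.55 to −3.92 (median −4.81) in KO-labelled 7 Gy arrays, against −2.90 (replicates 1 and 4), −2.86, −3.10 and −2.69 in KO-labelled 0 Gy arrays. The groups did not overlap, and Klrd1 fell by 1.77 ± 0.25 (log2, SE; limma adjusted p = 6.23e-06). Klrc1 encodes NKG2A, the inhibitory partner of CD94. It had levels of −4.62 to −3.61 (median −4.50) in KO-labelled 7 Gy arrays, against −3.70, −4.19, −3.56 and −3.13 in KO-labelled 0 Gy arrays. These overlapped, and the fall of 0.66 ± 0.22 (limma adjusted p = 0.0177) was not called without KO-labelled 0 Gy replicate 5, the highest of its group (−0.48, adjusted p = 0.108).

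Klra7 encodes Ly49G, an inhibitory receptor for classical MHC class I. Its level was −5.49 to −4.34 (median −4.80) in KO-labelled 7 Gy arrays, against −3.64, −4.13, −3.66 and −3.63 in KO-labelled 0 Gy arrays. All irradiated arrays were lower, by 1.1 ± 0.25 in log2 (limma adjusted p = 0.000904). The second Klra7 probe that passed the filter fell by 1.28 ± 0.30 (limma adjusted p = 0.00137). Klre1, which pairs with the mouse receptors Klri1 and Klri2, stood at −5.88 to −4.65 (median −5.28) in KO-labelled 7 Gy arrays, against −4.27, −4.25, −3.85 and −3.89 in KO-labelled 0 Gy arrays. It fell by 1.17 ± 0.22 with no overlap (limma adjusted p = 0.000139).

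Klrg1, an inhibitory receptor for cadherins that marks mature NK cells and effector T cells, had the largest change of the 8. Its level was −7.70 to −5.94 (median −6.86) in KO-labelled 7 Gy arrays, against −5.01, −5.61, −5.04 and −3.50 in KO-labelled 0 Gy arrays. The groups did not overlap, and it fell by 2.08 ± 0.35 (limma adjusted p = 4.92e-05), but its probe was well above background on 2 of the 9 KO-labelled 7 Gy arrays and 4 of the 5 KO-labelled 0 Gy arrays. Ncr1 encodes NKp46, an activating receptor of the immunoglobulin family and a marker of NK cells and related innate lymphoid cells. Its level was −7.24 to −5.24 (median −5.79) in KO-labelled 7 Gy arrays, against −5.07, −3.99, −5.06 and −4.82 in KO-labelled 0 Gy arrays. It fell by 1.05 ± 0.29 with no overlap (limma adjusted p = 0.0049). The Ncr1 probe was well above background on 5 of the 9 KO-labelled 7 Gy arrays and all 5 KO-labelled 0 Gy arrays.

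Both other receptors are activating, and neither passed the test in the fit as reported. Klrk1 encodes NKG2D, which binds stress-induced ligands such as the RAE-1 proteins. It had levels of −7.77 to −6.37 (median −6.98) in KO-labelled 7 Gy arrays, against −6.25, −4.87, −7.93 and −5.83 in KO-labelled 0 Gy arrays, a spread within the unirradiated group that covers the irradiated one. The log2 difference was −0.89 ± 0.39 (limma adjusted p = 0.0641), and the probe was well above background on 2 of the 9 irradiated arrays. Klrk1 was called with the slide as a fixed block (−1.021, limma adjusted p = 0.0118) or as a random block (−0.94, adjusted p = 0.0176). These fits counted KO-labelled 0 Gy replicates 1 and 4 singly. Klrk1 was also called with every array counted singly and no slide in the fit. Klrb1c encodes NK1.1, the antigen by which NK cells of this strain are commonly identified. It had levels of −3.82 to −2.16 (median −3.25) in KO-labelled 7 Gy arrays, against −3.11, −3.35, −3.12 and −2.70 in KO-labelled 0 Gy arrays, and the groups overlapped. The difference was −0.10 ± 0.22 (limma adjusted p = 0.736), its sign turned under 6 of 18 alternatives, and its second probe gave −0.17 ± 0.29 (adjusted p = 0.656).

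**Figure D1:**
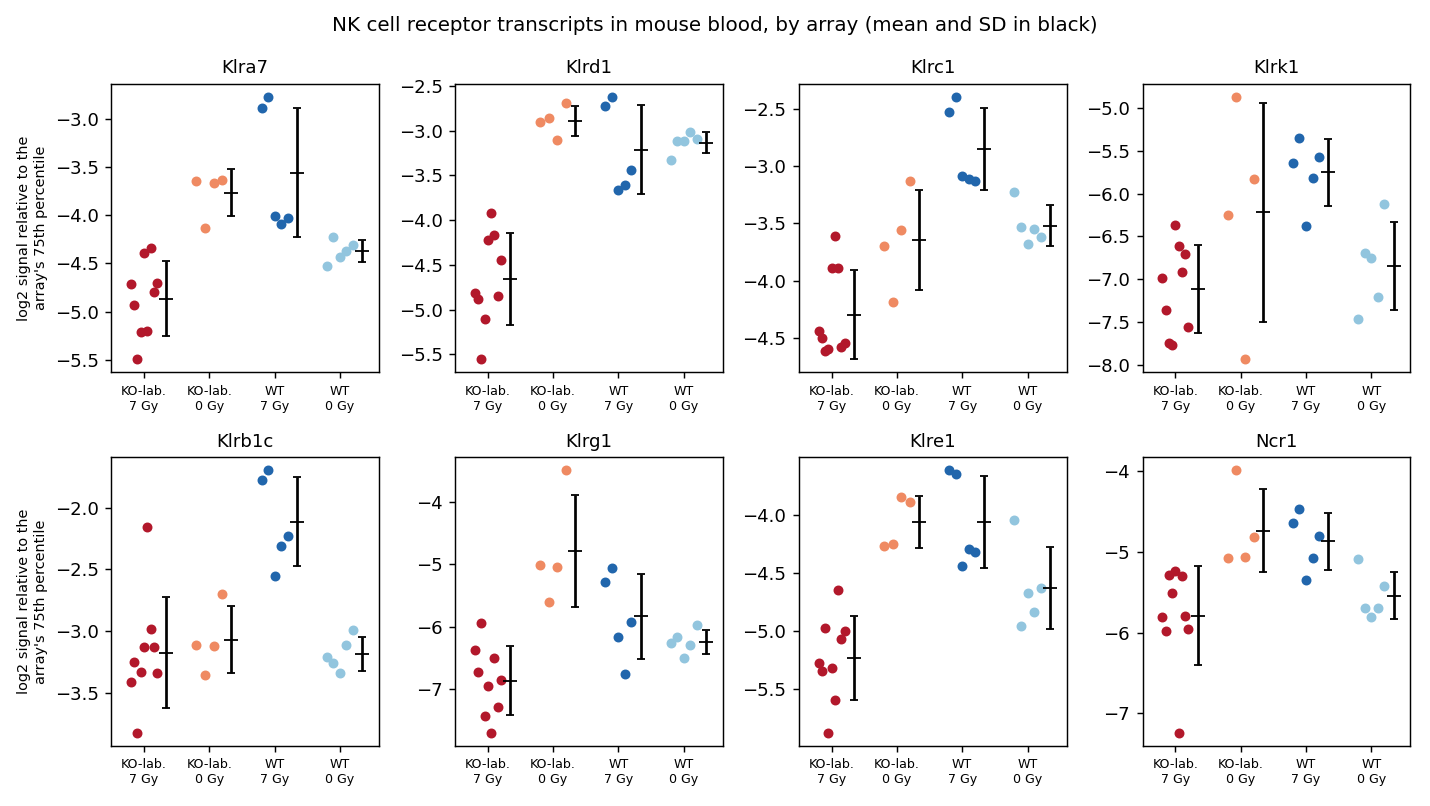
Each panel shows one receptor transcript as log2 processed signal minus that array's 75th percentile (y axis) in the 4 groups (x axis). Points are arrays, with KO-labelled 0 Gy replicates 1 and 4 averaged, and black bars give the mean and SD (n = 9, 4, 5 and 5 from left to right). KO-labelled 7 Gy arrays are low in most panels, and WT 7 Gy replicates 1 and 2 lie above the other 3 of that group in 7 of the 8 panels (not Klrk1).

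These calls depended on the background correction. With normexp on the mean spot signal and the local background, 0 of the 8 receptors were called in any comparison, and the KO-labelled change turned to 0.062 for Klra7, 0.21 for Klrc1, 0.049 for Klrg1, 0.084 for Klre1 and 0.32 for Ncr1. Klrk1 and Klrb1c, not called as reported, turned above 0 as well (Klrk1 at up to 0.64), and Klrd1 stayed below 0. Over all genes, the KO-labelled response then had 1413 calls in place of 7407. The receptors are dim: the median processed signal of the 8 probes was 16.1 to 180.3 units. The median probe of an array read 6.5 to 47.7 units after subtraction of the local background, against 4.0 to 13.5 units of processed signal.

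In WT mice the receptors went the other way or did not pass the test. Of the 8, 3 rose after 7 Gy (Klra7, Klrc1 and Klrb1c, by 1.59 to 2.09 fold), where 10.2% of all genes rose, and 0 fell, against 13.3% of all genes. The same 3 receptors had every 7 Gy array above every 0 Gy array, as did 12.0% of all genes. The median log2 change of the 8 was 0.67, against −0.05 over all genes.

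Klrb1c had levels of −1.78, −1.70, −2.55, −2.31 and −2.23 in WT 7 Gy replicates 1 to 5, against −3.21, −3.26, −3.34, −3.11 and −2.99 in WT 0 Gy arrays. Every irradiated array was higher, by 1.07 ± 0.23 in log2 (limma adjusted p = 0.00159), and its second probe rose by 1.52 ± 0.31 (adjusted p = 0.000856). The call held with each array left out in turn.

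Klra7 had levels of −2.89, −2.77, −4.01, −4.09 and −4.03 in WT 7 Gy arrays, against −4.53, −4.22, −4.43, −4.37 and −4.31 in WT 0 Gy arrays. Replicates 1 and 2 lay more than 1 log2 unit above the other irradiated arrays, which were still above all controls. The change was 0.81 ± 0.26 (limma adjusted p = 0.0261), and the second probe gave 0.78 ± 0.32 (adjusted p = 0.0833). Klrc1 had levels of −2.52, −2.39, −3.08, −3.11 and −3.13 in WT 7 Gy arrays, against −3.22, −3.53, −3.68, −3.55 and −3.62 in WT 0 Gy arrays. It rose by 0.67 ± 0.23 with no overlap (limma adjusted p = 0.0382). Klra7 lost its call without WT 7 Gy replicate 1 or 2 or WT 0 Gy replicate 1 or 3 (adjusted p 0.0513 to 0.0847), and Klrc1 without WT 7 Gy replicate 1 or 2 or WT 0 Gy replicate 2, 3, 4 or 5 (adjusted p 0.066 to 0.102). The count of 3 receptors fell to 1, Klrb1c, without WT 7 Gy replicate 1, WT 7 Gy replicate 2 or WT 0 Gy replicate 3.

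The other 5 receptors did not pass the test in WT in the fit as reported. With the slide as a fixed block Klrk1 was called as well (limma adjusted p = 0.0164), and with the slide as a random block Klrk1 (adjusted p = 0.0204) and Klre1 (adjusted p = 0.0432) were. Fits without slides also called Klrk1, with median scaling or every array counted singly. They called Klre1 with median scaling, without the arrays of noisy repeat spots, or without WT 7 Gy replicates 3 to 5. Ncr1 was called with the replicate number as a block or without the sixth slide. Klrk1, Klre1 and Ncr1 were above 0 on 5 of the 5 slides. Klrk1 had a log2 change of 1.1 ± 0.41 (limma adjusted p = 0.0566), with levels of −5.64, −5.35, −6.38, −5.82 and −5.57 in WT 7 Gy arrays, against −7.46, −6.69, −6.75, −7.21 and −6.12 in WT 0 Gy arrays, of which only replicate 5 reached into the irradiated range. Klre1 (0.57 ± 0.23, limma adjusted p = 0.0809), Ncr1 (0.67 ± 0.31, adjusted p = 0.126) and Klrg1 (0.41 ± 0.37, adjusted p = 0.501) also had positive differences with overlapping groups. Klrd1 had a difference of −0.08 ± 0.26 (limma adjusted p = 0.894): its levels were −2.72, −2.62, −3.66, −3.61 and −3.44 in WT 7 Gy arrays, against −3.33, −3.11, −3.12, −3.01 and −3.09 in WT 0 Gy arrays, so that replicates 1 and 2 lay above all controls and the other 3 below them.

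**Figure D2:**
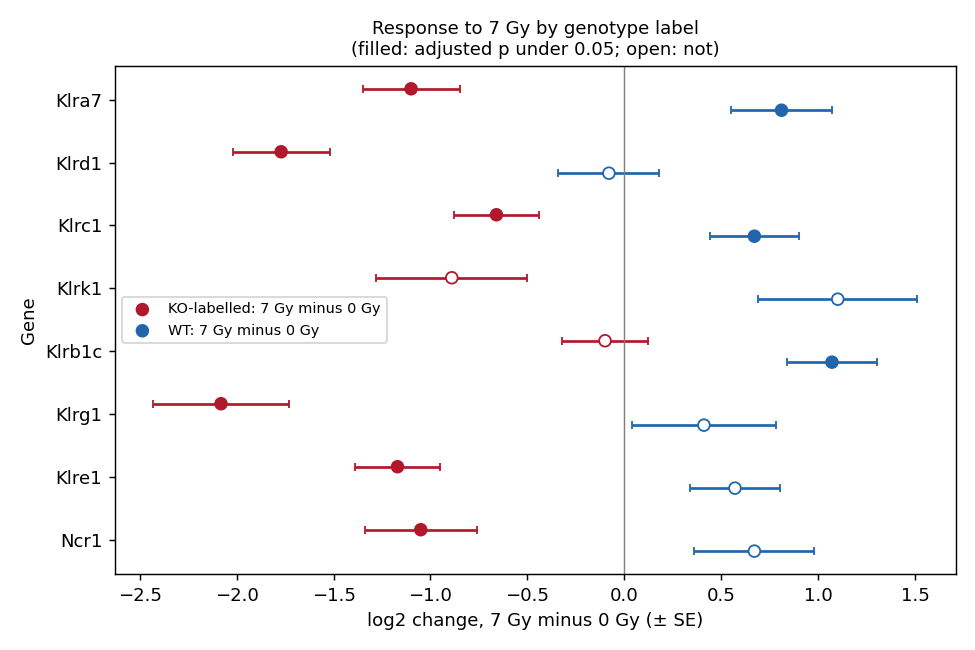
Log2 change after 7 Gy (x axis, ± SE) of each receptor (y axis) in KO-labelled arrays (red) and WT arrays (blue), with filled points for an adjusted p under 0.05. All 8 red points lie left of their blue points, and Klrb1c had a called rise in WT with a KO-labelled change of −0.10.

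WT 7 Gy replicates 1 and 2 were the highest of their group for 7 of the 8 receptors. For Klrk1, replicates 2 and 5 were. The mean level of the 8 receptors was −3.64 and −3.50 in replicates 1 and 2, and −4.45, −4.39 and −4.18 in replicates 3, 4 and 5, against −4.79 to −4.52 in WT 0 Gy arrays. Over 10 other NK cell markers, including Il2rb, Nkg7 and Ccl5, the mean level was −0.77 and −0.73 in replicates 1 and 2, and −1.51, −1.5 and −1.40 in replicates 3 to 5, against −2.24 to −1.98 in WT 0 Gy arrays. The 15 T cell markers were split in the same direction, with mean levels of −2.20 and −2.22 in replicates 1 and 2, and −2.79, −3.01 and −3.06 in replicates 3 to 5. Replicates 3 to 5 had the higher hepatocyte and neutrophil transcripts (neutrophil mean 0.01 in each, against −1.38 and −1.25 in replicates 1 and 2). Without replicates 3 to 5, 4 receptors were called as rising. Without replicates 1 and 2, 1 was, and with resembling arrays averaged up to a ratio of 1.5, which leaves 6 KO-labelled 7 Gy, 4 KO-labelled 0 Gy, 3 WT 7 Gy and 5 WT 0 Gy units, 1 was. The part of the hepatocyte, neutrophil and T cell transcripts in the receptor values was not tested.

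**Figure D3:**
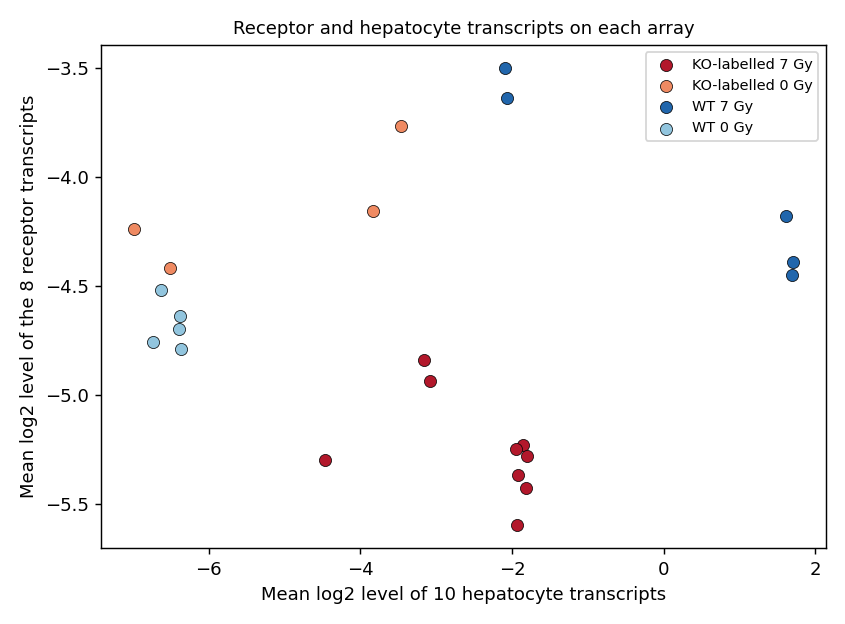
Mean log2 level of the 8 receptor transcripts (y axis) against that of 10 hepatocyte transcripts (x axis) on each array, both relative to the array's 75th percentile, coloured by group. WT 7 Gy arrays form a set of 2 near −2 and a set of 3 near 1.7 on the x axis, and KO-labelled 7 Gy arrays lie lowest on the y axis.

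The KO-labelled and WT mice were then compared directly. At 7 Gy all 8 receptors were lower in KO-labelled arrays, by 1.89 to 2.74 fold, where 18.3% of all genes were lower. The median log2 difference was −1.23, against −0.13 over all genes. For 4 receptors (Klra7, Klrd1, Klrc1 and Klre1) every KO-labelled array was below every WT array, which held for 5.35% of all genes. Klrc1 had levels of −4.62 to −3.61 in KO-labelled 7 Gy arrays, against −3.13 to −2.39 in WT 7 Gy arrays (log2 difference −1.45 ± 0.20, limma adjusted p = 3.54e-05). Klrd1 had −5.55 to −3.92 in KO-labelled arrays, against −3.66 to −2.62 in WT arrays (−1.45 ± 0.23, adjusted p = 0.000128). In both, the highest KO-labelled array stayed below the lowest WT array.

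Klra7 (−1.30 ± 0.23, limma adjusted p = 0.000314), Klre1 (−1.17 ± 0.20, adjusted p = 0.000265), Klrb1c (−1.06 ± 0.20, adjusted p = 0.000728) and Klrk1 (−1.37 ± 0.36, adjusted p = 0.00854) followed. The KO-labelled outlier in Klrb1c, replicate 6 at −2.16, was the one array of that group inside the WT range of −2.55 to −1.70. Klrg1 (−1.03 ± 0.32, limma adjusted p = 0.0253) and Ncr1 (−0.92 ± 0.27, adjusted p = 0.0169) were the least firm: Klrg1 lost its call without WT 7 Gy replicate 1 (−0.89, adjusted p = 0.0762) or 2 (−0.83, adjusted p = 0.089), and Ncr1 without WT 7 Gy replicate 2 (−0.82, adjusted p = 0.0516). Within each of slides 1 to 5, the KO-labelled array was below the WT array for 6 receptors, and on 4 of 5 slides for Klrg1 and Ncr1. With the slide as a fixed block, 6 receptors were called. Without WT 7 Gy replicates 1 and 2, 5 receptors were called, and without replicates 3 to 5, 6 were.

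At 0 Gy none of the 8 receptors differed (0 called by limma, where 0.291% of all genes were called, and 1482 of 15787 genes had an unadjusted p under 0.05). For Klra7, Klrg1 and Ncr1 every KO-labelled array was nonetheless above every WT array, as for 7.30% of all genes. The largest difference was that of Klrg1, at 1.46 ± 0.39 in log2 (limma adjusted p = 0.149), with levels of −5.01, −5.61, −5.04 and −3.50 in KO-labelled 0 Gy arrays, against −6.26, −6.17, −6.50, −6.30 and −5.98 in WT 0 Gy arrays. With the slide as a random block it was called (limma adjusted p = 0.0431). The Klrg1 probe was well above background on 4 of 5 KO-labelled and 3 of 5 WT 0 Gy arrays. The size and rank of its difference are therefore uncertain. The median difference of the 8 was 0.58, against 0.10 over all genes.

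The responses were compared by the interaction of dose and genotype label. The KO-labelled response was lower than the WT response for all 8 receptors, where 12.7% of all genes were lower and 3.06% higher. The difference of the log2 changes was −2.48 ± 0.51 for Klrg1 (limma adjusted p = 0.00396), −1.99 ± 0.57 for Klrk1 (adjusted p = 0.0216), −1.91 ± 0.36 for Klra7 (adjusted p = 0.00238) and −1.74 ± 0.32 for Klre1 (adjusted p = 0.002). It was −1.73 ± 0.42 for Ncr1 (limma adjusted p = 0.0105), −1.69 ± 0.36 for Klrd1 (adjusted p = 0.00495), −1.33 ± 0.32 for Klrc1 (adjusted p = 0.00923) and −1.17 ± 0.32 for Klrb1c (adjusted p = 0.0185). On each of the 5 slides that held all groups, the difference was below 0 for every one of the 8. The median of the 8 was −1.73, against −0.27 over all genes. This comparison and the preceding ones share their arrays.

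Leaving out KO-labelled 0 Gy replicate 5 ended the calls of Klrk1 (−1.86, limma adjusted p = 0.055) and Klrb1c (−1.04, adjusted p = 0.0534), and leaving out KO-labelled 0 Gy replicate 2 that of Klrk1 (−1.54, adjusted p = 0.0581). Without WT 7 Gy replicates 1 and 2, 6 of the 8 remained called. Under normexp 0 of the 8 were called. With an offset of 50, 0 of all genes were called in this comparison, in place of 2489, so that the lost calls are not particular to the receptors. All 8 differences were still below 0 under normexp (in log2, −0.91 to −0.48 with an offset of 50, where the all-gene median was −0.215).

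**Figure D4:**
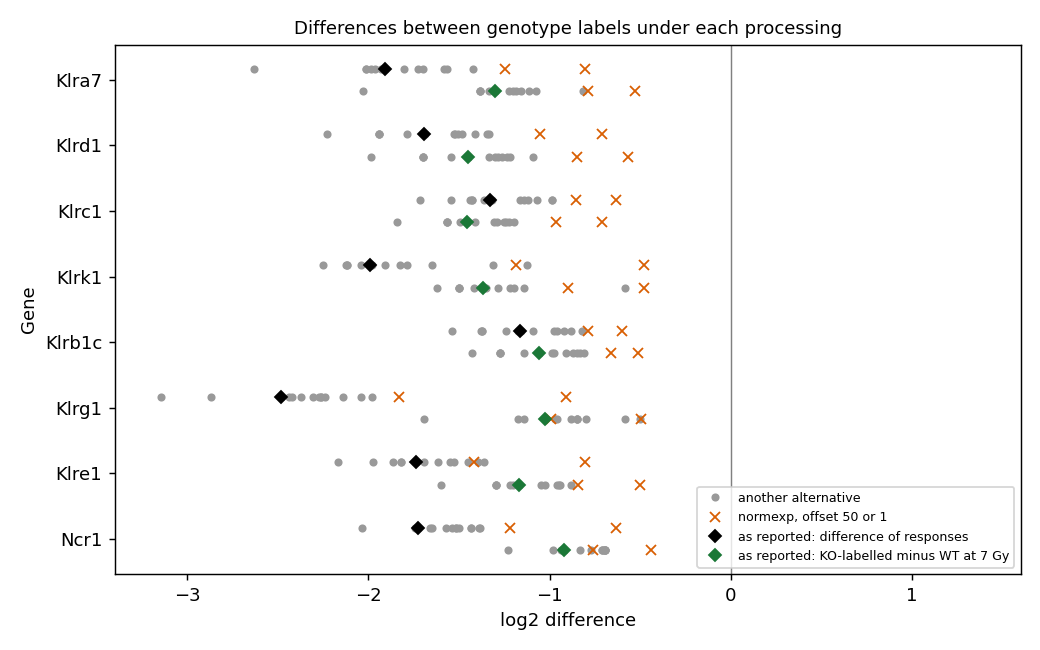
Log2 difference (x axis) of each receptor (y axis): the KO-labelled response minus the WT response (upper row of each gene, black diamond as reported) and KO-labelled minus WT at 7 Gy (lower row, green diamond). Grey points and orange crosses are the values under other processing, the crosses being normexp, and every one lies left of 0.

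Markers of other cell types moved with these differences. At 7 Gy, KO-labelled arrays were lower than WT arrays in 5 of 15 T cell markers (Cd3g by −1.23 ± 0.19 in log2), 7 of 10 neutrophil markers (Cxcr2 by −3.34 ± 0.66) and 7 of 10 hepatocyte markers (Ttr by −3.54 ± 0.95), in 2 of 9 monocyte markers and in 0 of 10 B cell markers. They were higher in 5 of 11 erythroid markers, 2 of 10 platelet markers and 1 of 10 neutrophil markers. Of the 10 NK cell markers outside the receptors, 5 were lower (Gzma, Il2rb, Txk, Tbx21 and Nkg7) and 0 higher. Over all 15787 genes, 3585 were called in this comparison in either direction, and 2896 of them (18.3% of all genes) were lower. The summed level of the 15 T cell markers, as a ratio to the 75th percentile, was 2.36 to 6.82 in KO-labelled 7 Gy arrays, against 4.64 to 8.25 in WT 7 Gy arrays, and that of the 10 hepatocyte markers 1.04 to 6.07, against 5.41 to 94.1. No marker of either list was below background throughout these groups. Their part in the receptor results was not tested.

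The NK cell markers outside the receptors did not all fall with them in KO-labelled mice. After 7 Gy 3 of the 10 fell, namely Gzma (granzyme A, by −1.29 ± 0.51), Eomes (by −0.85 ± 0.27) and Txk (by −0.64 ± 0.21), and Nkg7, a protein of cytotoxic granules, rose by 0.65 ± 0.16 (limma adjusted p = 0.00202). These counts are near the shares over all genes in KO-labelled mice, of which 34.8% fell and 12.1% rose. In WT mice 6 of the 10 rose and 0 fell, with Il2rb at 1.86 ± 0.25, Nkg7 at 1.42 ± 0.17 and Tbx21 at 1.01 ± 0.24. Over all genes in WT mice, 10.2% rose and 13.3% fell. Of 15 T cell markers, 10 fell in KO-labelled mice and 6 in WT mice, and 0 rose in either. All 10 B cell markers fell in both, with median log2 changes of −4.12 in KO-labelled and −3.76 in WT mice. Neutrophil markers fell in 5 of 10 genes in KO-labelled and 1 of 10 in WT mice, and 0 rose. Of 9 monocyte markers, 5 fell and 2 rose in KO-labelled mice, and 3 fell and 2 rose in WT mice. Of 10 platelet markers, 9 rose in KO-labelled and 6 in WT mice, and 0 fell. Of 11 erythroid markers, 5 rose and 5 fell in KO-labelled mice, and 0 rose and 5 fell in WT mice. Of 10 hepatocyte markers, 7 rose in KO-labelled and 9 in WT mice, and 0 fell. The part of these shifts in the receptor changes was not tested.

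The neighbouring receptors of the NK gene complex were read through 18 of 30 listed genes. Of these 18, 12 fell and 0 rose in KO-labelled mice after 7 Gy, where 34.8% of all genes fell and 12.1% rose. The median log2 change of the 18 was −1.03. Cd69, a lectin-like marker of early activation, changed by −2.65 ± 0.30 (limma adjusted p = 4.31e-07), Klra6 by −1.71 ± 0.30 (adjusted p = 8.62e-05) and Klra17 by −1.56 ± 0.61 (adjusted p = 0.0409). The probes of Klra6 and Klra17 were each well above background on 1 of 9 KO-labelled 7 Gy arrays, so that the size of these changes is uncertain. In WT mice 4 rose and 1 fell, where 10.2% of all genes rose and 13.3% fell, with a median of 0.64 for the 18. The rises were led by 2 members of the Klrb1 family that includes NK1.1, Klrb1a (1.43 ± 0.40, limma adjusted p = 0.0109) and Klrb1 (1.36 ± 0.29, adjusted p = 0.00138), and the fall was that of Cd69 (−1.12 ± 0.32, adjusted p = 0.0125). At 7 Gy 15 of the 18 were lower in KO-labelled than in WT arrays, among them Klra17 (−2.70 ± 0.57), Klrc3 (−1.59 ± 0.30) and Klra23 (−1.55 ± 0.25), and 0 were higher. In this comparison 18.3% of all genes were lower. Klra17 and Klrc3 were each well above background on 1 of the 9 KO-labelled arrays, against 5 and 4 of the 5 WT arrays, which leaves the size and rank of their differences uncertain. The response was lower in KO-labelled arrays for 11 of the 18, against 12.7% of all genes, with Klra23 at −2.12 ± 0.39, Klra4 at −2.02 ± 0.42 and Klra12 at −2.00 ± 0.31. Many of these are Ly49 genes with related probes, and the list was chosen with earlier results of these data known.

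**Figure D5:**
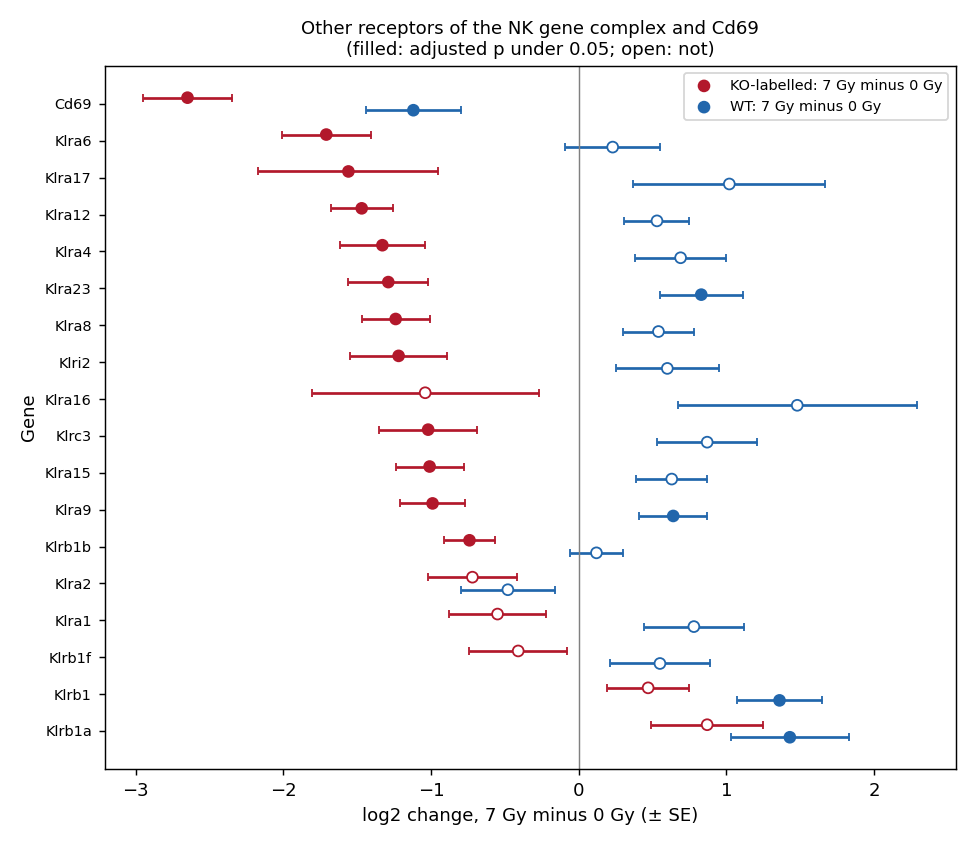
Log2 change after 7 Gy (x axis, ± SE) of the 18 tested neighbouring genes of the NK gene complex (y axis) in KO-labelled arrays (red) and WT arrays (blue), filled where the adjusted p was under 0.05. Red points lie left of blue points for all 18, with Klrb1 and Klrb1a the only red points right of 0.

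Adaptors and proximal signalling proteins pass on the receptors' signals. After 7 Gy in KO-labelled mice 8 of 20 fell and 4 rose, where 34.8% of all genes fell and 12.1% rose: Plcg2 changed by −1.69 ± 0.24 and Ptpn6, the phosphatase SHP-1 that inhibitory receptors recruit, by −1.62 ± 0.26, while Fcer1g, an adaptor of NKp46 and other activating receptors, changed by 1.27 ± 0.18. In WT mice 5 rose and 1 fell: Cish, a cytokine-induced inhibitor of NK cell signalling, by 2.68 ± 0.45, Plcg2 by −0.88 ± 0.26 and the kinase Zap70 by 0.81 ± 0.21. At 7 Gy 8 of the 20 were lower in KO-labelled than in WT arrays, led by Cish (−1.28 ± 0.39), Tyrobp (−1.24 ± 0.26), which encodes the adaptor DAP12, and Ptpn6 (−1.17 ± 0.24). The responses differed in 4 of the 20, all lower in KO-labelled arrays, with Cish at −1.91 ± 0.62, Lck at −1.25 ± 0.29 and Sh2d1a at −1.17 ± 0.32. The median log2 changes were −0.28 in KO-labelled and 0.35 in WT mice. Of all genes, 10.2% rose and 13.3% fell in WT mice, 18.3% were lower at 7 Gy and 12.7% had a lower response.

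Ligands of the receptors were measured with 9 of 20 genes past the filter. In WT mice 6 rose and 0 fell after 7 Gy: Cdh2, a cadherin, by 1.67 ± 0.49, and the class I genes H2-Q7 by 1.06 ± 0.23 and H2-T23, which encodes Qa-1, the ligand of CD94 with NKG2A, by 0.96 ± 0.19 had the largest fitted changes. Cdh2 was well above background on 3 of 5 WT 7 Gy and 1 of 5 WT 0 Gy arrays, so that the size and rank of its change are uncertain. In KO-labelled mice only B2m, the light chain of class I molecules, rose (1.01 ± 0.21, limma adjusted p = 0.000347), and 0 of the 9 fell. H2-Q7 (−0.78 ± 0.20) and H2-K1 (−0.57 ± 0.20) were lower in KO-labelled than in WT arrays at 7 Gy, and the response differed for H2-K1 (−1.18 ± 0.32, limma adjusted p = 0.016). Of all genes, 10.2% rose and 13.3% fell in WT mice, and 12.1% rose and 34.8% fell in KO-labelled mice. At 7 Gy 18.3% of all genes were lower, and 12.7% had a lower response.

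Of 15 transcription factors of NK cells, 7 fell and 1 rose in KO-labelled mice after 7 Gy, where 34.8% of all genes fell, led by Ets1 (−2.99 ± 0.19), Foxo1 (−2.61 ± 0.17) and Irf8 (−2.54 ± 0.30), all of which B or T cells also express. In WT mice 4 fell and 3 rose, with Irf8 at −2.71 ± 0.31, Ets1 at −1.64 ± 0.20 and Foxo1 at −1.64 ± 0.18. At 7 Gy 4 were lower and 1 higher in KO-labelled than in WT arrays: Tox (−1.58 ± 0.28), Ets1 (−0.88 ± 0.18) and Ikzf3 (0.88 ± 0.24) had the largest fitted differences. Tox was well above background on 1 of 9 KO-labelled arrays, against 5 of 5 WT arrays, and the size of its difference is uncertain. The response was lower in KO-labelled arrays for 6, led by Tox (−1.86 ± 0.44), Ets1 (−1.35 ± 0.28) and Tbx21 (−1.22 ± 0.33), the T-box factor T-bet. Of all genes, 12.1% rose in KO-labelled mice, and 13.3% fell and 10.2% rose in WT mice. At 7 Gy 18.3% of all genes were lower, which is 2896 of the 3585 called in either direction. A lower response was called for 12.7%.

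The cytokine receptors and kinases of the IL-2, IL-12, IL-15 and IL-18 axis, which sustain and activate NK cells, fell in 9 of 16 genes in KO-labelled mice, with Il15ra at −1.68 ± 0.49, Il18r1 at −1.27 ± 0.38 and Il18rap at −1.17 ± 0.32, and 0 rose. In WT mice 2 rose, Il2rb (1.86 ± 0.25) and Il12rb1 (1.40 ± 0.21), and 0 fell. At 7 Gy 6 of the 16 were lower in KO-labelled than in WT arrays, led by Il18rap (−1.67 ± 0.30), Il18r1 (−1.26 ± 0.35) and Il12rb1 (−1.1 ± 0.18). Il18rap was well above background on 2 of the 9 KO-labelled arrays. The response was lower for 4: Il12rb1 (−1.82 ± 0.29), Il18rap (−1.65 ± 0.47), Il2rb (−1.46 ± 0.34) and Stat4 (−1.04 ± 0.20). Of all genes, 34.8% fell and 12.1% rose in KO-labelled mice, and 10.2% rose and 13.3% fell in WT mice. At 7 Gy 18.3% of all genes were lower, and 12.7% had a lower response.

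Among 20 other surface receptors of NK cells, 7 fell and 5 rose in KO-labelled mice, where 34.8% of all genes fell, with Cx3cr1, a chemokine receptor also carried by monocytes, at −4.82 ± 0.36, Slamf6 at −2.82 ± 0.23 and Itgam at 1.75 ± 0.35. Cx3cr1 and Slamf6 were well above background on 2 and 1 of the 9 KO-labelled 7 Gy arrays, and the size of their changes is uncertain. In WT mice 2 fell and 4 rose, with Cx3cr1 at −2.79 ± 0.37 and Cxcr3 at 1.25 ± 0.21. Slamf6 was not well above background on any WT 7 Gy array and was at least 3.12-fold lower there than in WT 0 Gy arrays (limma adjusted p = 7.55e-06), with the dim arrays set to no less than their lowest signal well above background. At 7 Gy 5 were lower and 1 higher in KO-labelled than in WT arrays, led by Cx3cr1 (−2.10 ± 0.33), Cd160 (−1.07 ± 0.33) and Cxcr3 (−0.95 ± 0.19). Cd160 was well above background on 1 of the 9 KO-labelled arrays. The response was lower for 7 and higher for 1, led by Cx3cr1 (−2.03 ± 0.52), Cd160 (−1.64 ± 0.52) and Cd96 (−1.33 ± 0.26). Of all genes, 12.1% rose in KO-labelled mice, and 13.3% fell and 10.2% rose in WT mice. At 7 Gy 18.3% of all genes were lower, which is 2896 of the 3585 called in either direction. The response was lower for 12.7% of all genes and higher for 3.06%. At 0 Gy, 0 genes of these 6 lists differed between the genotype labels.

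Beyond the group means, the receptors varied together to unequal degrees. With group means removed, the Pearson correlation of each receptor with the mean of the other 7 over the 23 units was 0.73 for Klra7, 0.66 for Klrd1, 0.58 for Klrc1, 0.51 for Klre1, 0.46 for Klrb1c and 0.38 for Klrg1. It was 0.27 for Klrk1 and 0.15 for Ncr1. The 6 genes most like the mean of the receptors were AW112010 (0.91), Bcl2a1d (0.91), Ear2 (0.90), ENSMUST00000103746 (0.88), Gbp11 (0.86) and Flt3l (0.86). These points share arrays, and the split among the WT 7 Gy arrays is part of their spread.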

How the data were processed

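The authors' deposited scanner output gives an intensity per spot, made with Agilent Feature Extraction 12.0.2, per the submitters' processing notes; per the file headers the processed signal is background-subtracted and spatially detrended. The deposited value table, used as an alternative, holds log2 values: on each array they were the log2 processed signals shifted by 1 constant between 0 and 1.543 (all within 0.01). Its column medians were 5.94, 6.19, 6.36, 6.41 and 6.41 (KO-labelled 0 Gy), 5.82, 6.10, 6.10, 6.52, 7.18, 6.37, 6.20, 5.81 and 6.23 (KO-labelled 7 Gy), 5.76, 6.04, 6.39, 6.40 and 6.00 (WT 0 Gy) and 5.87, 5.93, 6.30, 6.22 and 6.12 (WT 7 Gy), so that its scale is known and genes were not centred.

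From each log2 processed signal the 75th percentile of its array was subtracted, taken over 7857 probes well above background on all 24 arrays, and the result was fitted with limma 3.58.1 (R 4.3.3, the data.table package at 1.17.8) in a single model of 4 groups. Spots of a probe were averaged, 19651 of 39429 probes passed the filter, and the probe of highest mean stood for a gene. P-values are two-sided and Benjamini-Hochberg adjusted over 15787 genes; errors are SE unless named SD. The fit was tested on simulated data. Probes were named by accession (28663), symbol (3300), older symbol (160) or the files' own name (7306). Coordinates of probes are mm9, per the file headers; no annotation of that build was used.

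The receptors and all lists were chosen with earlier results of these data known. All members are named, with up to 3 called genes of each list per comparison by size. The measure of likeness between arrays, and its limit of 1.1 times the SD of repeat spots, were set after seeing the ratios; counting every array singly gave 7, 4, 8, 0 and 8 receptors called (KO-labelled response, WT response, 7 Gy, 0 Gy, interaction). The promoter strings were chosen by factor family, 7 in all. Alternatives covered scaling, background, filters, probes, arrays, slides and each array left out. The number of arrays limits the precision. Python 3.11.15, pandas 2.3.3, NumPy 2.4.6 and matplotlib 3.10.9 made tables and figures.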

Additional observations from a re-analysis of the deposited data

Results flagged for a closer look

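The response to 7 Gy differed between the genotype labels for all 8 tested receptors by the interaction test (limma, adjusted p under 0.05), KO-labelled minus WT: Klrg1 −2.48, Klrk1 −1.99, Klra7 −1.91, Klre1 −1.74, Ncr1 −1.73, Klrd1 −1.69, Klrc1 −1.33 and Klrb1c −1.17 in log2. Apart from single arrays left out, the call held in 7 of 17 alternatives for Klrk1, 9 of 18 for Klrb1c and 11 of 17 for Klrc1. It held in 14 of 17 for Klrg1 and Ncr1, 15 of 18 for Klrd1, and 15 of 17 for Klra7 and Klre1. Klrg1 and Klrk1 were each well above background on 2 of the 9 KO-labelled 7 Gy arrays, Ncr1 on 5 and Klre1 on 6.

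In 3 of 32 groups of values, 1 array lay far from the others by Dixon's test, which chance gives in about 1 of 20 groups. Klra7 stood at −4.13 in KO-labelled 0 Gy replicate 2, next to −3.66, on an array with noisy repeat spots. In KO-labelled 7 Gy replicate 6, Klrb1c stood at −2.16, next to −2.98, and Ncr1 at −7.24, next to −5.98. The Ncr1 probe was not well above background on that array.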

How the results depend on the processing

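As reported, 6, 3, 8, 0 and 8 receptors were called in the KO-labelled response, the WT response, the genotype labels at 7 Gy and at 0 Gy, and the interaction. Normexp with an offset of 50 gave 0 in each, as did normexp with an offset of 1, an alternative added after seeing the data. Over all genes, the offset of 50 gave 1413, 761, 238, 1 and 0 calls in these comparisons, in place of 7407, 3696, 3585, 46 and 2489. Normexp turned the KO-labelled change of Klra7 (0.062), Klrc1 (0.21), Klrg1 (0.049), Klre1 (0.084) and Ncr1 (0.32), and with the smaller offset those of Klrc1 (0.15) and Ncr1 (0.09). The KO-labelled changes of Klrk1 and Klrb1c, not called as reported, were also above 0 with either offset, that of Klrk1 at up to 0.64. The WT count was 5 with median scaling or the slide as a random block, 6 with the replicate block, and 1 with the authors' value table, no filter on dim probes, resembling arrays averaged up to 1.5 times repeat spots, or without WT 7 Gy replicates 1 and 2 (added after seeing the data). The count at 7 Gy was 5 with the value table, with that averaging and without those 2 arrays. The interaction count was 5 with the percentile over all probes, and 4 with quantile normalization, the value table or that averaging. With probes above background on all arrays, Klrd1 and Klrb1c alone were tested, and the counts were 1, 1, 2, 0 and 2. At 0 Gy the slide as a random block gave 1. In the KO-labelled response Klrk1 was called as well with every array counted singly, with the slide as a fixed or random block and with the replicate block. The block fits also counted every array singly. Leaving out each array in turn gave 5 to 7, 1 to 4, 6 to 8, 0 to 0 and 6 to 8. Replicates 1 to 5 of each group lay on slides 1 to 5 in that order, so number and slide cannot be told apart for them. These same-numbered arrays deviated together in part (correlations −0.229 to 0.697, 18 of 30 above 0.1). The labels do not say that a number marks a batch. The replicate block differs from the slide block only in KO-labelled 7 Gy replicates 6 to 9, and it moved no other count by over 1.5 times. Median scaling moved the all-gene median of the KO-labelled response to −0.014, against −0.266 as reported. Signal over background limits Klrg1 and Klrk1 most, well above background on 13 of 24 arrays each. It also limits Ncr1 and Klre1, well above background on 5 and 6 of the 9 KO-labelled 7 Gy arrays.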
